A study of Mus musculus with 27 samples.

Results

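*Slc25a12*, *Ypel4*, *Eef1a1*, *Atf4* and *Ppp1r10* are 5 protein-coding genes at autosomal loci that earlier work placed near the long noncoding RNA gene *Firre* in the nucleus. They were taken from the deposited count table by their symbols, as 5 of its 37310 genes, and their expression was followed in mouse embryonic fibroblasts (MEFs) with and without *Firre*. MEFs are primary cultures prepared from embryos. Those of the study came from individual mid-gestation embryos with the viscera, head and limbs removed, and they were used for a few passages only. The libraries form 4 groups of 3 replicates, namely female wild type (WT), female *Firre* KO, male WT and male *Firre* KO. The KO allele lacks the whole *Firre* gene, which was deleted by recombination between inserted loxP sites, and the labels name no further allele or treatment in any group. The labels do not say whether the replicates of a group came from separate embryos, so the p-values below measure the spread between these libraries, which may be technical. Hi-C of C2C12 cells, an established mouse myoblast line with intact *Firre*, was used to describe the contacts of the same loci.

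*Firre* RNA is transcribed from the X chromosome, stays in the nucleus and accumulates around its own site of transcription. Genes of several other chromosomes have been found close to that site by chromatin and imaging methods, which raised the question of whether *Firre* holds them there and whether their expression depends on it. The 5 genes have unrelated roles. *Eef1a1* encodes the elongation factor that brings aminoacyl-tRNA to the ribosome. *Atf4* encodes a transcription factor of the integrated stress response, whose protein is made mainly when general translation is lowered, so its RNA level is only part of its control. *Ppp1r10* encodes PNUTS, a nuclear regulatory subunit of protein phosphatase 1 that acts on RNA polymerase II. *Slc25a12* encodes the mitochondrial aspartate/glutamate carrier of the malate-aspartate shuttle. *Ypel4* belongs to the small and conserved YPEL family of zinc-binding proteins.

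The genes lie on 4 chromosomes of the mouse genome build mm9. *Slc25a12* (ENSMUSG00000027010.8) lies at chr2:71109120-71205806 on the minus strand, with 22 merged exon blocks of 7342 bases, and 92.4% of its span is intron. *Ypel4* (ENSMUSG00000034059.7) lies on the same chromosome at chr2:84574215-84578812 on the plus strand. *Eef1a1* (ENSMUSG00000037742.8) lies at chr9:78326256-78336958 on the minus strand, with 5 exon blocks of 2493 bases. *Atf4* (ENSMUSG00000042406.6) is the shortest of the 5, at chr15:80085614-80087970 on the plus strand, with exons of 1724 bases. *Ppp1r10* (ENSMUSG00000039220.9) lies at chr17:36053379-36069226 on the plus strand. *Firre* itself (ENSMUSG00000085396.1) occupies chrX:47908921-47988498 on the minus strand.

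*Eef1a1* has processed pseudogenes, which are intronless copies of its mRNA, and these decide how well its reads can be assigned. The reads were quantified with RSEM, which divides a read that matches several genes among them in fractions. The count of *Eef1a1* was not a whole number in 12 of 12 libraries, and the same was true of *Slc25a12*. The counts of *Ypel4*, *Atf4* and *Ppp1r10* were whole, to within 1e-06, in all 12. The annotation holds 5 genes whose exons match *Eef1a1* at 90% identity or more over at least 300 bases. Coding bases 223 to 312 of *Eef1a1* (transcript ENSMUST00000042235.8) are given with 3 of the copies because they show how few bases separate a read of the gene from a read of a copy. Capitals mark the bases of a copy that differ from *Eef1a1*.
Eef1a1: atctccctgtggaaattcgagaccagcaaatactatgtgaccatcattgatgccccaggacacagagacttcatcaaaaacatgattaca
Gm13456: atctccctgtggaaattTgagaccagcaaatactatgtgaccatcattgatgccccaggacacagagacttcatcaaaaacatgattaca
Gm6548: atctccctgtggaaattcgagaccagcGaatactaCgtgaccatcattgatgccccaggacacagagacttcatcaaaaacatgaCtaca
Gm12912: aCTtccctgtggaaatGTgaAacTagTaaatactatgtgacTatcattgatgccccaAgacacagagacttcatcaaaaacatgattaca
Within these 90 bases *Gm13456* (chr2:40411272-40412636) differed from *Eef1a1* at 1 base, *Gm6548* (chr17:79250132-79251296) at 3 and *Gm12912* (chr4:74793513-74794893) at 9.

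The copies took a very small share of the counts. *Gm6548* had the most, with 217.78 to 352.47 expected counts per library, while *Gm12912* had 0 to 3. Together the 5 copies held 0.0636% to 0.0903% of the *Eef1a1* count as RSEM divided the reads, and another division was not tested. Adding the copies to the gene left its log2 fold change at 0.10 in female MEFs and 0.02 in male MEFs. Of all stretches of 50 bases in the exons of *Eef1a1*, 26.1% occur unchanged in the exons of at least 1 other gene, and 9 such genes were found. For stretches of 100 bases the share was 6.73%. The exons of *Ypel4* and *Atf4* held no shared stretch of 50 bases. In *Slc25a12* 0.206% of the stretches were shared, with 318 other genes, and all lie between bases 3928 and 3991 of its merged exons. *Ppp1r10* shared 1.01% of its stretches of 50 bases and has 1 copy, *Gm8801*, with at most 1 count in any library.

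Annotated genes also overlap 3 of the 5. The microRNA gene *mmu-mir-703* lies with all of its 108 bases inside an exon of *Eef1a1*, on the same strand. Its expected count was 0 in all 6 female libraries, 27.67 to 39.15 in the male WT libraries and 37.47 to 52.83 in the male KO libraries. At most 0.0115% of the *Eef1a1* count was involved, and since the counts of 2 genes on identical sequence cannot be told apart, no expression of the microRNA gene is read from them. *Mir1894* lies inside an exon of *Ppp1r10* and had 0 counts in every library. *Gm13641* lies on the opposite strand of *Slc25a12* and shares none of its exon bases.

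RNA-seq depth was 42986516 to 51481034 expected counts per library in the female and 51521907 to 65454660 in the male MEFs. The genotype of each library was checked through *Firre*, which had 90 to 129 expected counts in the female WT, 239 to 307 in the male WT and 0 in each of the 6 KO libraries. The fibroblast identity was checked with 12 markers such as *Col1a1* and *Vim*, none of which was at 0. Their summed level was 16156 to 23628 CPM (counts scaled to a common library size, as defined below). Markers of other cell types differed between the sexes, with 11 macrophage markers summing to 41.2 to 129.7 CPM in female and 8.80 to 17.7 CPM in male libraries, and 8 epithelial markers to 74.8 to 129.2 and 40.8 to 53.8 CPM. The 9 neural markers summed to 626 to 846 CPM in female and 475 to 646 CPM in male libraries, and 11 skeletal muscle markers to 90.4 to 170.7 and 80.3 to 146.2 CPM. Among the tested muscle markers the median log2 difference of female against male MEFs was 3.04 in WT and 3.34 in KO, and among the neural markers 0.92 and 1.102. The share of nonzero counts that were fractional was 28.4% to 29.4% in female and 31.2% to 31.9% in male libraries. Whether reads of both sexes had the same length and were quantified with the same settings is not given in the sources used here. In bulk samples, fewer cells of a type cannot be told apart from less RNA per cell. The median correlation of a library with the others of its sex (Pearson's r of log2 CPM across genes, which are not independent replicates) was 0.987 to 0.992, and it was lowest among the male libraries in the third replicate of either genotype.

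The 5 genes span a wide range of expression, and their order was the same in every library. To compare genes, counts were divided by exon length and scaled to approximate TPM (a level per length, scaled to a common total). *Eef1a1* had 9881 to 10733 TPM over the 12 libraries and stood at percentile 99.99 of the mean CPM of the genes tested. *Atf4* followed with 320.6 to 451.9 TPM, *Ppp1r10* with 31.3 to 39.1 TPM and *Slc25a12* with 14.2 to 16.6 TPM. *Ypel4* had 0.294 to 0.582 TPM, which rests on 13 to 31 counts per library. The ranges of neighbours in this order did not overlap. The genes also differed in how steady they were, since the highest library exceeded the lowest 1.13-fold in CPM for *Eef1a1*, 1.18-fold for *Slc25a12*, 1.33-fold for *Ppp1r10*, 1.36-fold for *Atf4* and 1.88-fold for *Ypel4*.

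**Figure D1:**
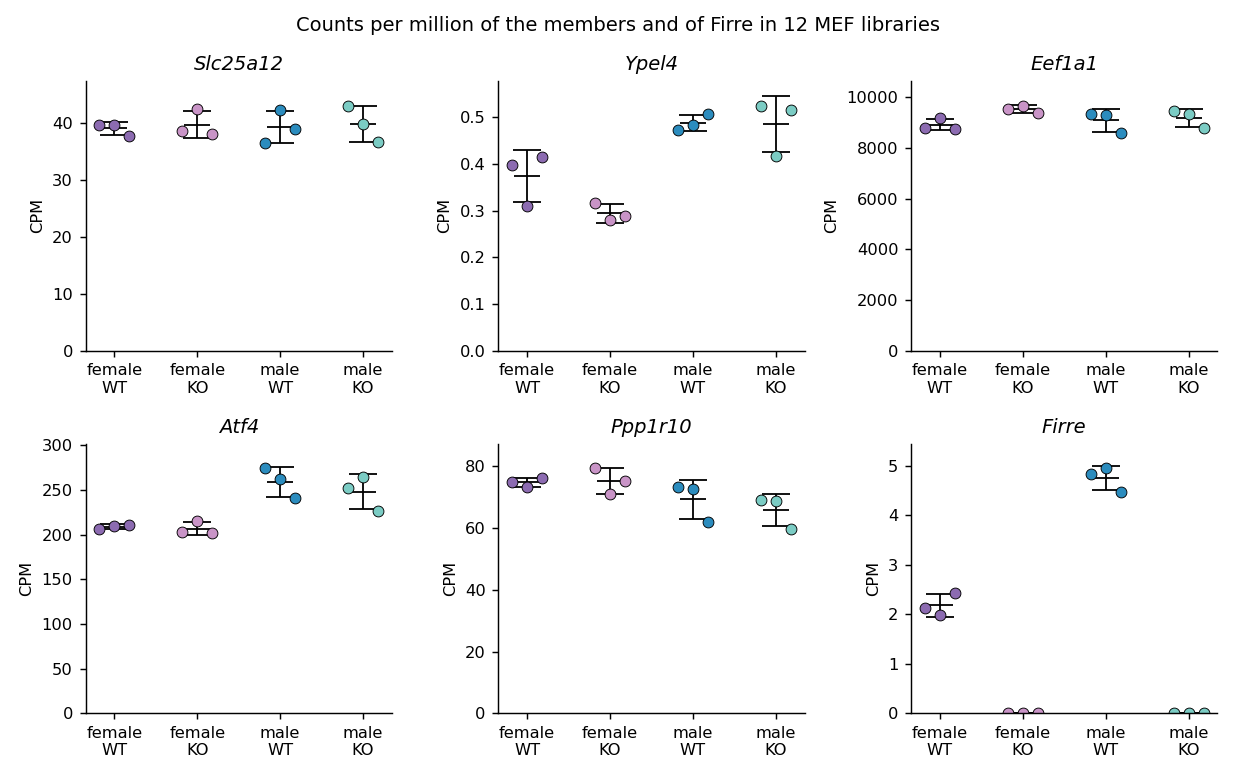
CPM (vertical axis, from 0) of the 5 genes and of *Firre* in each of the 12 MEF libraries (points), with the mean and SD of each group of 3 (bars). *Atf4* lies between 202.0 and 214.9 CPM in the female and between 226.7 and 274.1 CPM in the male libraries, while *Firre* is at 0 in all KO libraries.

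To ask whether the loss of *Firre* changed the 5 genes, KO was compared with WT within each sex. None of the 5 passed the test in female or in male KO MEFs, and the WT and KO libraries overlapped for each of them except *Eef1a1* in the female cells. Counts were fitted by the quasi-likelihood method of edgeR, and p-values were adjusted after Benjamini and Hochberg over the 15387 genes tested. A gene was called at an adjusted p under 0.05, and a stricter call asked for a log2 fold change beyond 1 in either direction at an adjusted p under 0.01. All 5 genes passed the filter on low counts. At an adjusted p under 0.05 the test called 0.013% of all genes in the female and 0.0065% in the male comparison, with the deleted *Firre* among them. Thus 0 of 5 lies at the background, and DESeq2 also called 0 of the 5. The sizes that the data leave possible are therefore the more useful result.

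*Eef1a1*, the elongation factor gene, had 8806, 9170 and 8771 CPM in the 3 female WT libraries and 9549, 9680 and 9391 CPM in the 3 female KO libraries. Every female KO library was above every female WT library. In male MEFs the values were 9364, 9325 and 8588 CPM in WT and 9452, 9342 and 8795 CPM in KO, and these overlapped. The log2 fold change was 0.10 (SE 0.04) in female MEFs, with an unadjusted p of 0.0442 and an adjusted p of 0.647 by edgeR, and 0.02 (SE 0.04) in male MEFs with an adjusted p of 1. As a fold, the 95% interval was 1.002 to 1.14 in female and 0.947 to 1.08 in male MEFs. Separation of WT and KO is common in the female comparison, where the libraries of 19.1% of all genes did not overlap (10.9% higher and 8.2% lower in KO). In the male comparison this share was 5.29% (2.78% higher and 2.52% lower). Without the third male replicates, a choice made after seeing the data, the female value was 0.09 (SE 0.03) with an adjusted p of 0.178 by edgeR. The KO effect on *Eef1a1* did not differ detectably between the sexes (difference 0.08, SE 0.06, adjusted p = 1.00 by edgeR). This difference was 0.050 without male KO replicate 3 and 0.12 without male WT replicate 3.

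*Atf4* had 206.0, 209.5 and 210.9 CPM in the female WT libraries and 203.1, 214.9 and 202.0 CPM in the female KO libraries. In the male WT libraries it had 274.1, 262.3 and 240.8 CPM, and in the male KO libraries 252.1, 264.6 and 226.7 CPM. WT and KO overlapped in both sexes. The estimate for *Atf4* on the log2 scale was -0.01 (SE 0.06) in female cells and -0.06 (SE 0.06) in male cells, with adjusted p-values of 0.973 and 1 by edgeR. The 95% interval of the fold ran from 0.902 to 1.09 in female and from 0.872 to 1.05 in male MEFs. In the male libraries the third replicate of WT and the third replicate of KO were the lowest of their groups for *Atf4*, *Eef1a1* and *Ppp1r10*. Without both of these libraries the log2 fold change of *Atf4* in male MEFs was -0.06 (SE 0.04), but it was -0.0037 without male KO replicate 3 alone and -0.11 without male WT replicate 3 or male KO replicate 2 alone.

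*Ppp1r10*, which encodes PNUTS, had 74.9, 73.2 and 76.0 CPM in the female WT libraries and 79.2, 71.0 and 75.1 CPM in the female KO libraries. Its male WT libraries had 73.1, 72.4 and 62.0 CPM and its male KO libraries 69.0, 68.5 and 59.6 CPM. The female KO values lay on both sides of WT, and 2 of the 3 male KO values lay between the male WT values. The log2 fold change of *Ppp1r10* was 0.01 (SE 0.07) in female MEFs and -0.07 (SE 0.07) in male MEFs, with adjusted p-values of 0.990 and 1 by edgeR. The male value was -0.0094 without male KO replicate 3 and -0.15 without male WT replicate 3. Folds of 0.899 to 1.13 in female and of 0.849 to 1.06 in male MEFs lay within the 95% interval.

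*Slc25a12*, the aspartate/glutamate carrier gene, was the most even of the lower genes. It had 39.8, 39.6 and 37.8 CPM in the female WT libraries and 38.6, 42.5 and 38.2 CPM in the female KO libraries. In the male libraries it had 36.6, 42.3 and 39.1 CPM in WT and 43.1, 39.8 and 36.6 CPM in KO. Group means lay between 39.1 ± 1.11 CPM (SD, n = 3) in female WT and 39.8 ± 3.23 CPM (SD, n = 3) in male KO MEFs. The log2 fold change was 0.02 in both sexes (SE 0.07 in each), with adjusted p-values of 0.962 and 1 by edgeR. The 95% interval of the fold was 0.913 to 1.13 in female and 0.911 to 1.13 in male MEFs.

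*Ypel4* was the only one of the 5 that was close to the limit of detection. It had 17, 14 and 22 counts in the female WT libraries and 14, 13 and 13 counts in the female KO libraries, which is 0.397, 0.309 and 0.414 CPM against 0.317, 0.279 and 0.288 CPM. The groups overlapped, because 1 WT library lay below 1 KO library. In the male libraries it had 0.472, 0.484 and 0.506 CPM in WT and 0.525, 0.416 and 0.516 CPM in KO. The log2 fold change was -0.34 (SE 0.28) in female MEFs, with an adjusted p of 0.802 by edgeR, and -0.01 (SE 0.20) in male MEFs with an adjusted p of 1. The interval of the fold was wide, 0.515 to 1.203 in female and 0.731 to 1.35 in male MEFs, so a fall of the size seen in female KO MEFs was not detectable at this depth. For the other genes the interval reached at most 0.16 to either side of the estimate on the log2 scale.

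Averaged over the sexes, the log2 fold changes on KO were 0.06 (SE 0.03) for *Eef1a1*, 0.02 (SE 0.05) for *Slc25a12*, -0.03 (SE 0.05) for *Ppp1r10*, -0.04 (SE 0.04) for *Atf4* and -0.18 (SE 0.17) for *Ypel4*. With 1 library left out, the averaged value of *Ppp1r10* ranged from -0.069 without male WT replicate 3 to -0.00062 without male KO replicate 3, and that of *Atf4* from -0.064 to -0.0093 without the same libraries. The ranges were 0.037 to 0.073 for *Eef1a1* without those libraries, -0.0077 to 0.050 for *Slc25a12*, lowest without male KO replicate 1 and highest without male KO replicate 3, and -0.23 to -0.12 for *Ypel4*. The lowest adjusted p was 0.813 by edgeR. The test called 0.0195% of all genes, and 6.24% had an unadjusted p under 0.05. The effect of the KO did not differ detectably between the sexes for any of the 5, where the test called 0% of all genes and 491 genes (3.19%) had an unadjusted p under 0.05.

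**Figure D2:**
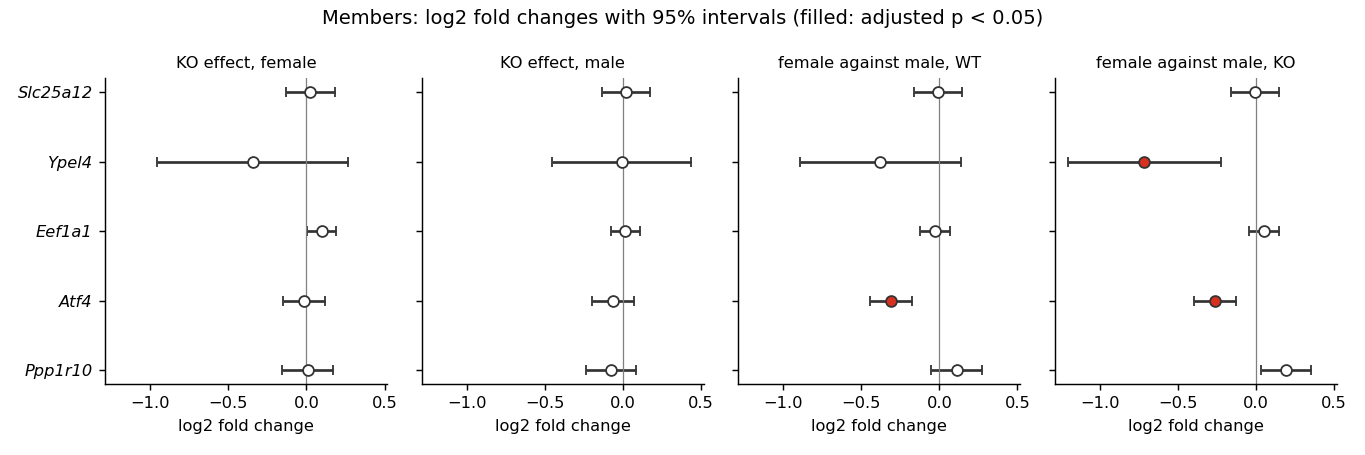
Log2 fold changes of the 5 genes (horizontal axis) with 95% intervals, for KO against WT in female and in male MEFs and for female against male MEFs of either genotype. Filled points passed an adjusted p under 0.05. The KO effects lie between -0.34 and 0.10, and filled points occur for *Atf4* in both sex comparisons and for *Ypel4* in KO MEFs.

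The loci around the 5 genes were examined in the same way, to ask whether neighbours were called on KO where none of the 5 was. The annotation places 204 other genes within 500 kb of the 5, of which 96 were expressed enough to be tested. The density differed, with 38 tested genes around *Ppp1r10*, in a gene-dense part of the major histocompatibility complex region, 17 around *Ypel4*, 16 around *Atf4*, 13 around *Eef1a1* and 12 around *Slc25a12*. None of the 96 was called in female or male KO MEFs by edgeR at an adjusted p under 0.05, or by DESeq2. At an unadjusted p under 0.05 there were 14 of the 96 in female MEFs, 8 of them among the 38 around *Ppp1r10*. Of all genes tested, 1162 (7.55%) had such a p. In male MEFs there were 0 of the 96, beside 317 of all genes (2.06%). The median log2 fold change of the 96 genes was 0.01 in female and -0.00 in male MEFs, beside medians of -0.00 and -0.00 over all genes tested.

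None of the genes next to the 5 passed the test either, and the largest estimates were those of *Gm9840* and *Serping1* in female MEFs. *Dync1i2*, a dynein intermediate chain gene 7.759 kb from *Slc25a12*, had log2 fold changes of -0.00 in female and -0.02 in male KO MEFs, and *Hat1*, a histone acetyltransferase gene on its other side, had 0.09 and 0.12. *Clp1*, which encodes a factor of mRNA 3′ end formation, lies 6.707 kb from *Ypel4* and had -0.06 and 0.05. *Serping1*, the C1 inhibitor gene on the other side of *Ypel4*, had -0.44 (SE 0.24) and -0.19 (SE 0.23). *Mto1*, a gene of mitochondrial tRNA modification 3.1 kb from *Eef1a1*, had 0.10 and -0.03, and *Slc17a5*, the lysosomal sialic acid transporter gene 47.336 kb away on the other side, had 0.05 and -0.04.

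*Smcr7l*, 1.817 kb from *Atf4*, had log2 fold changes of 0.04 in both sexes. *Rps19bp1*, 3.073 kb on its other side, had 0.15 (SE 0.07, adjusted p = 0.646 by edgeR) in female and 0.13 (SE 0.07, adjusted p = 1) in male MEFs. *Mrps18b*, a mitochondrial ribosomal protein gene, begins 0.044 kb from *Ppp1r10* on the opposite strand and had 0.04 and 0.01. *Gm9840*, a pseudogene 3.299 kb on the other side of *Ppp1r10*, had 0.618 to 1.14 CPM in female WT and 1.48 to 3.36 CPM in female KO libraries. In male MEFs it had 0.834 to 1.56 CPM in WT and 0.845 to 1.02 CPM in KO. Its log2 fold change of 1.33 (SE 0.36) in female MEFs had an unadjusted p of 0.00379 and an adjusted p of 0.512 by edgeR, and the value in male MEFs was -0.29 (SE 0.36). The other 2 female KO libraries had 1.48 and 1.49 CPM, so all 3 lay above the female WT libraries.

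**Figure D3:**
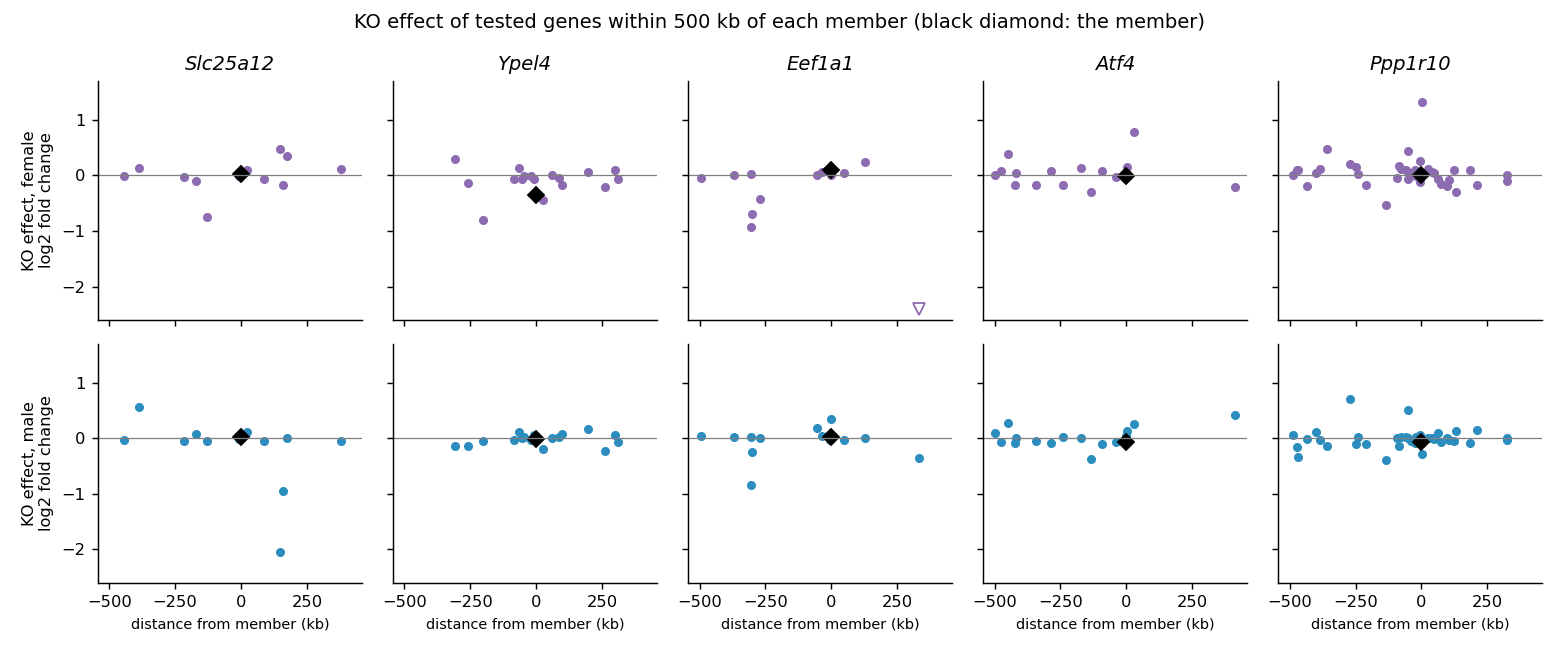
Log2 fold change on KO (vertical axis) of the tested genes within 500 kb of each of the 5 genes, by distance in kb (horizontal axis), in female MEFs (upper row) and male MEFs (lower row). The black diamond is the gene itself, and the open triangle stands for *Gm8116*, whose value of -6.66 (SE 3.96) lies beyond the axis. Points scatter around 0 at all 5 loci, and none passed the test.

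Genes related to the 5 as partners, targets or members of the same family or pathway were taken from 6 lists, with 61 tested genes. None of the 61 was called in female or in male KO MEFs by edgeR or by DESeq2. At an unadjusted p under 0.05 there were 6 of 61 in female and 0 in male MEFs, beside 7.55% and 2.06% of all genes. Of these 6, 5 were among the 8 tested genes of the translation elongation list. The largest KO effects were modest in most lists. Among 24 genes listed as targets of ATF4 the largest was *Gdf15*, a stress-induced cytokine gene, at 0.45 (SE 0.22) in female MEFs, and *Stc2*, a secreted glycoprotein gene, at -0.19 (SE 0.25) in male MEFs. Among 10 genes listed as upstream kinases or as partners of ATF4 it was *Cebpa* at 0.42 (SE 0.32) in female and *Atf5* at -0.12 (SE 0.13) in male MEFs. In the YPEL family the largest effects were -0.33 (SE 0.17) for *Ypel1* in female and -0.28 (SE 0.23) for *Ypel2* in male MEFs. In the malate-aspartate shuttle they were 0.10 for *Mdh2*, the mitochondrial malate dehydrogenase gene, in female and -0.09 for *Got1*, the cytosolic aspartate aminotransferase gene, in male MEFs. In the PNUTS list they were 0.12 for *Polr2a*, the largest subunit of RNA polymerase II, in female and 0.05 for *Ppp1cc*, a catalytic subunit of the phosphatase, in male MEFs.

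The translation elongation list resembled *Eef1a1* itself in the female cells. In 7 of its 8 tested genes every female KO library was above every female WT library, where the background was 10.9% of all genes, and in male MEFs 0 of the 8 separated, where the background was 2.78%. The sizes were small. The largest was *Vars*, the valyl-tRNA synthetase gene, with 143.7 to 151.1 CPM in WT and 162.4 to 181.3 CPM in KO, a log2 fold change of 0.23 (SE 0.06) and an adjusted p of 0.503 by edgeR. *Eef2*, the factor that moves the ribosome along the mRNA, had 3236 to 3416 CPM in WT and 3473 to 3591 CPM in KO, a log2 fold change of 0.11 (SE 0.06). None of the 8 passed the test, at a median of 0.10 in female and -0.00 in male MEFs, and genes of one pathway in the same libraries are not independent of each other. None of the marker genes was called in the same comparison. The 7 tested epithelial markers had a median log2 fold change of -1.22 in female KO MEFs, with 3 of 7 at an unadjusted p under 0.05, while the medians of the macrophage, neural and skeletal muscle markers were -0.01, -0.02 and 0.04 and that of the endothelial markers -0.28, with 0 at that p in each. *Krt5*, a basal keratin gene, had -3.45 (SE 0.90), and the fibroblast marker *Lum* had -2.07 (SE 0.35), both named after their values were seen. The 12 fibroblast markers together had a median of -0.11, with 3 of 12 above 0. Their part in the values of *Eef1a1* and the elongation list was not tested. In male MEFs the gene of the elongation list farthest from 0 was *Eef2k*, which encodes the kinase that inhibits EEF2, at -0.09 (SE 0.06).

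Because both sexes were measured, the level of the 5 genes was also compared between female and male MEFs of the same genotype. Here *Atf4* differed. All 3 female WT libraries were below all 3 male WT libraries, and the same held in KO. The log2 fold change was -0.31 (SE 0.06) in WT, with an adjusted p of 0.00246, and -0.26 (SE 0.06) in KO, with an adjusted p of 0.00621, both by edgeR. As a fold, the level in female MEFs was 0.806 of that in male WT MEFs (95% interval 0.735 to 0.884) and 0.834 in KO MEFs (0.760 to 0.915). Without the third male replicates the differences were larger, -0.36 in WT and -0.32 in KO. The background is high in this comparison, since 38.7% of all genes passed an adjusted p under 0.05 in WT (18.9% higher and 19.8% lower in female MEFs) and 38.7% in KO (18.9% higher and 19.7% lower). At an unadjusted p under 0.05 the shares were 47.8% and 47.9%. The female and male libraries also differed in depth, in the share of fractional counts and in markers of other cell types, as given above. In female WT MEFs 10 of 11 macrophage, 7 of 7 epithelial, 5 of 8 skeletal muscle, 4 of 8 neural and 3 of 6 endothelial markers were called higher, and none of these lower. In female KO MEFs the counts were 11 of 11, 2 of 7, 6 of 8, 5 of 8 and 1 of 6 in the same order, again with none lower. Of the 12 fibroblast markers, 1 was called higher and 2 lower in WT, and 2 higher and 3 lower in KO. The part of these in this and the following differences was not tested. Sex and the embryos or cultures used cannot be told apart.

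The female libraries of *Ypel4* lay below the male ones in both genotypes, and the difference passed the test in KO. Its log2 fold change was -0.38 (SE 0.23, adjusted p = 0.228 by edgeR) in WT and -0.72 (SE 0.22, adjusted p = 0.0257) in KO. The call in KO MEFs rests on 13 to 31 counts per library. It was lost without female KO replicate 2 or 3 or male KO replicate 1 or 3, at adjusted p-values of 0.0566 to 0.0802 by edgeR, and with DESeq2 at 0.0595. The female libraries of *Ppp1r10* lay above the male ones in both genotypes, with log2 differences of 0.11 (SE 0.07, adjusted p = 0.263 by edgeR) in WT and 0.19 (SE 0.07, adjusted p = 0.0583) in KO, neither of which passed the test. In WT the difference was 0.036 without male WT replicate 3, and in KO it was 0.126 without male KO replicate 3. Without male WT replicate 3, which enters the shared estimate of the spread, its adjusted p in KO was 0.0253, and without the male replicates numbered 3 of both genotypes the difference was 0.13 with an adjusted p of 0.0429. Libraries that do not overlap are frequent between the sexes, at 51.9% of all genes in WT (25.5% higher and 26.4% lower in female MEFs) and 50.2% in KO (24.5% and 25.7%). *Slc25a12* (-0.01 and -0.00) and *Eef1a1* (-0.03 and 0.05) did not differ detectably between the sexes in WT and in KO. With 1 library left out, *Eef1a1* ranged from -0.069 to -0.0079 in WT and from 0.020 to 0.071 in KO. Without the third male replicates its WT difference was -0.069, with an adjusted p of 0.0796 by edgeR.

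The genes listed as ATF4 targets moved in both directions between the sexes. In WT 3 of the 24 tested genes were higher and 10 were lower in female MEFs, and in KO 6 were higher and 10 were lower, where 18.9% of all genes were higher in either genotype and 19.8% and 19.7% were lower, with medians of -0.20 and -0.17 beside -0.01 and -0.00 over all genes tested. *Gdf15* was lowest in female MEFs, with 1.66 to 2.80 CPM in female and 5.51 to 9.02 CPM in male WT libraries, a log2 fold change of -1.80 (SE 0.22, adjusted p = 0.000149 by edgeR). In KO it had 2.40 to 3.40 CPM in female and 6.91 to 8.24 CPM in male libraries, a log2 fold change of -1.37 (SE 0.21). *Chac1*, a glutathione-degrading enzyme gene, was also lower, by -1.33 (SE 0.22) in WT and -1.31 (SE 0.22) in KO. In the other direction *Slc7a5*, a transporter of large neutral amino acids, was higher by 0.38 (SE 0.08) in WT and 0.49 (SE 0.08) in KO, *Psat1*, an enzyme gene of serine synthesis, by 0.28 (SE 0.08) in WT, and *Eif4ebp1*, a translation inhibitor gene, by 0.30 (SE 0.08) in KO. *Gdf15* and *Chac1* were the 2 genes of the list that also passed the stricter call.

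**Figure D4:**
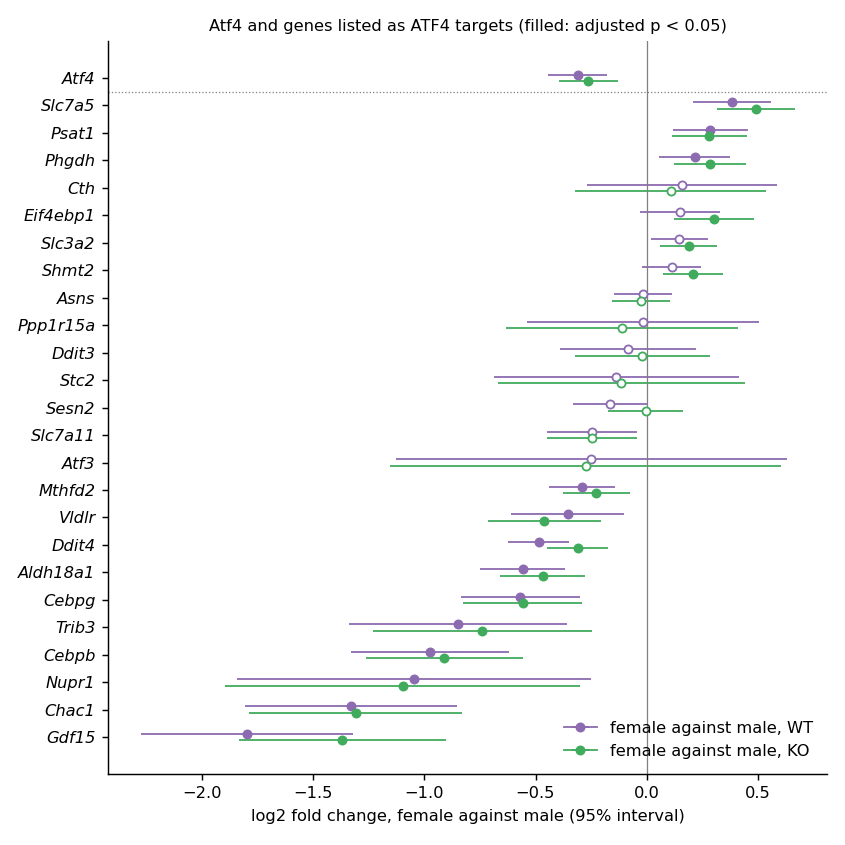
Log2 fold change of female against male MEFs (horizontal axis) with 95% intervals for *Atf4* and the 24 tested genes listed as ATF4 targets, in WT and in KO MEFs. Filled points passed an adjusted p under 0.05. *Atf4* lies at -0.31 in WT and -0.26 in KO, and its listed targets reach from -1.80 for *Gdf15* in WT to 0.49 for *Slc7a5* in KO.

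Among the 10 genes listed as upstream kinases or as partners of ATF4, 5 were lower in female WT MEFs and 4 in female KO MEFs. The shares of all genes were 19.8% and 19.7%. None of the 10 was higher, beside 18.9% of all genes. The largest differences were -0.74 (SE 0.13) in WT and -0.50 (SE 0.13) in KO for *Atf5*, a related transcription factor gene, -0.48 (SE 0.12) in WT for *Creb1* and -0.53 (SE 0.10) in KO for *Eif2ak3*, which encodes the kinase PERK. *Ypel4* shared its direction with *Ypel3* (-0.82 in WT and -0.79 in KO, SE 0.16 each) and *Ypel2* (-0.75 in WT and -0.64 in KO, SE 0.23 each), of which *Ypel2* in KO lay at the threshold with an adjusted p of 0.04996 by edgeR. *Ypel1* was higher in female WT MEFs by 0.63 (SE 0.17) and at 0.07 (SE 0.17) in KO.

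The differences named for the lists of the 3 other genes lay between -0.29 and 0.54. In the malate-aspartate shuttle 4 of 7 genes were higher in female MEFs of both genotypes, where 18.9% of all genes were higher, led by *Got2*, the mitochondrial aspartate aminotransferase gene, at 0.37 in WT and 0.46 in KO (SE 0.04 each). *Slc25a13*, which encodes the other aspartate/glutamate carrier, was higher by 0.31 in WT (SE 0.06), and *Got1* by 0.37 in KO (SE 0.05). *Slc25a11*, the oxoglutarate carrier gene, was lower by -0.19 in WT (SE 0.07). In the PNUTS list 4 of 8 genes were higher in both genotypes, beside the same 18.9%, among them *Ppp1r8* at 0.31 and 0.32 (SE 0.05 each) and *Ppp1ca*, a catalytic subunit gene, at 0.29 and 0.33 (SE 0.04 each). *Ppp1cb*, another catalytic subunit gene, was lower by -0.14 and -0.17 (SE 0.03 each), and *Tox4*, whose protein joins the complex, by -0.13 (SE 0.04) in WT. In the elongation list 3 of 8 genes were higher and 1 was lower in WT, and 4 were higher and 0 lower in KO. The shares of all genes were 18.9% higher in either genotype, and 19.8% and 19.7% lower. *Eif5a* was higher by 0.47 and 0.54 (SE 0.04 each), *Eef1e1* by 0.23 in WT (SE 0.06) and *Eef1g* by 0.25 in KO (SE 0.03). *Eef2k* was lower by -0.29 in WT (SE 0.06).

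Of the 96 tested neighbours, 19 were higher and 23 lower in female than in male WT MEFs, and 20 were higher and 21 lower in KO, at the background given above. By the stricter call there were 4 in WT and 5 in KO, where 4.54% and 3.89% of all genes passed. *Metap1d*, a mitochondrial methionine aminopeptidase gene 85.5 kb from *Slc25a12*, was lower by -1.03 in WT and -1.04 in KO (8.01 to 8.43 CPM in female and 16.0 to 16.6 CPM in male WT libraries). *P2rx3*, an ATP-gated channel gene near *Ypel4*, was lower by -1.17 and -1.14, and it was below 1 CPM in every group. *Pdgfb*, a growth factor gene near *Atf4*, was higher by 1.31 in WT and 1.12 in KO. *H2-Bl*, a class I histocompatibility gene near *Ppp1r10* that is annotated as a polymorphic pseudogene, was lower by -1.25 in KO. It belongs to a multigene family, and how far its reads are shared was not tested. The remaining 1 was *mmu-mir-703*, described above.

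The adjacent genes followed no common direction. *Rps19bp1*, beside *Atf4*, was higher in female MEFs by 0.37 (SE 0.07) in WT and 0.39 (SE 0.07) in KO. *Mto1*, beside *Eef1a1*, was lower by -0.37 (SE 0.08) and -0.24 (SE 0.08). *Clp1*, beside *Ypel4*, was higher by 0.30 (SE 0.06) and 0.18 (SE 0.06), and *Mrps18b*, beside *Ppp1r10*, was higher by 0.28 and 0.32 (SE 0.04 each). *Dync1i2*, beside *Slc25a12*, was lower by -0.13 and -0.11 (SE 0.04 each). These passed an adjusted p under 0.05 by edgeR in both genotypes.

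To describe which genes varied most like each of the 5, log2 CPM values were centred on the mean of each sex and compared over the 12 libraries with those of the genes above 5 CPM. Such values share library depth and composition, so the coefficients are a description. *Eef1a1* varied most like the ribosomal protein gene *Rpl32* and the ribosomal protein pseudogene *Rpl10a-ps1* (Pearson's r = 0.97 for each). *Ppp1r10* varied most like *Pard3* and *Phf21a* (r = 0.97 for each), *Atf4* like *Slc9a5* (r = 0.93) and the stress-induced gene *Gadd45a* (r = 0.92), *Ypel4* like *Clk1* (r = 0.92) and *Wdr37* (r = 0.86), and *Slc25a12* like *Tmco4* (r = 0.88) and *Vps28* (r = 0.86). Among the 5 themselves, *Atf4* and *Ppp1r10* had an r of 0.72, *Ypel4* and *Eef1a1* had -0.71, and the other 8 pairs lay between -0.26 and 0.51.

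The deposited Hi-C matrix of C2C12 cells was read at the same loci. It holds corrected contact signal in bins of 40 kb, pooled from 2 replicates by the authors, and so allows no test. In the rectangle of bins within 480 kb of *Firre* and of each gene, signal was present in 0 of 756 bin pairs for *Slc25a12*, 0 of 675 for *Ypel4*, 0 of 675 for *Eef1a1*, 1 of 675 for *Atf4* and 1 of 675 for *Ppp1r10*. The bins that hold the genes themselves had no contact with those of *Firre*. The map is sparse between chromosomes, where a window of this size held on average 0.628 to 1.31 bin pairs with contact, and 21.8% to 53.4% of all windows on the chromosomes of the 5 genes held none. A count of 0 or 1 is therefore what this depth gives at most places, and no contact or lack of contact of *Firre* with the 5 loci can be read from it. The signal at *Ppp1r10* was 2.38 times the mean of its chromosome, above 84.4% of its windows, and that at *Atf4* was 0.722 times the mean, above 49.3%, each from its 1 bin pair. Within 1000 kb there were 4 bin pairs with contact for *Slc25a12*, 0 for *Ypel4*, 3 for *Eef1a1*, 3 for *Atf4* and 4 for *Ppp1r10*. Of the signal of the *Firre* window, 85.8% lay within chromosome X.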

How the data were processed

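Total RNA of MEFs was sequenced from 12 libraries of the TruSeq version 2 kit, which does not mark strand. The authors mapped reads with Bowtie 2, quantified genes with RSEM 1.2.29 on mm9. The values that the authors deposited are unscaled expected counts of each gene. All 37310 identifiers and symbols matched the annotation of NCBIM37 (mm9), from which coordinates and exons were taken. For Hi-C, the authors used HiC-Pro 2.7.8 and deposited the pooled, iteratively corrected contact signal in 40 kb bins. The ChIP-seq samples were not analysed here.

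For testing, the expected counts were rounded. The quasi-likelihood fit used edgeR 4.0.16 under R 4.3.3, TMM factors and the filterByExpr filter, with a separate mean for each of the 4 groups, which left 8 residual degrees of freedom. Standard errors were derived from the p-values. The stricter thresholds followed the methods of the study, and single genes and lists were called at an adjusted p under 0.05. DESeq2 1.42.0, other normalizations and filters, a replicate block, other windows and leaving out each library were alternatives. CPM is counts per 1e+06 of the library size. For *Firre*, the genes followed throughout and the cell type markers, this size was the library total multiplied by its TMM factor. These factors were 0.985 to 1.03. For the other genes whose CPM is given, it was the library total alone. TPM scales counts to a total of 1e+06 after division by merged exon length. log2 CPM for likeness had a prior count of 2. Copies were found with blastn 2.17.0. Hi-C windows were averaged with NumPy 2.4.6, with absent pairs as 0. The edgeR procedure was also run on simulated counts, and the outcome of that run is not given here. Depth was 42986516 to 65454660 counts per library, and the intervals given come from the edgeR fit, which includes the spread between libraries.

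The 5 genes and all lists were chosen with earlier results of these data known. Named were *Firre*, the 5 genes, the nearest tested gene on each side of each, neighbours past the thresholds of the study, and, per list and comparison, the called genes that rose most and fell most (at most 2 each way), or the gene with the largest change where none was called. For likeness, the 2 genes with the highest coefficient were named. *mmu-mir-703*, *Mir1894*, *Gm13641*, *Gm8116* and the copies were named for their place or value after these were seen. *Eef1a2* and *Slc25a18* were in the lists but too low to test, and *Eef1akmt1* was not found by that symbol.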

Additional observations from a re-analysis of the deposited data

How the results depend on the processing

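None of the 5 genes was called on KO, and *Atf4* was called between the sexes, under every alternative run, at adjusted p-values by edgeR or DESeq2 of at most 0.0122 in WT and 0.0268 in KO. *Ypel4* between KO MEFs lost its call without the filter on low counts (adjusted p = 0.0570 by edgeR), with only the 6 libraries compared (0.0537) and without the third male replicates (0.0627), and *Ppp1r10* gained one with the replicate block (0.0403). Causes of the changes given here were not tested, except where fewer libraries or genes entered. By the stricter call, all genes called on KO numbered 1 in female, 1 in male MEFs and 1 averaged, and these became 4, 2 and 3 with DESeq2, and 0, 0 and 0 with at least 10 counts in every library. With only the 6 libraries compared and with the replicate block they were 0 in either sex, and averaged over the sexes the block gave 1. At an adjusted p under 0.05 and without the fold limit, which loosens both thresholds, they were 2 in female MEFs and 3 averaged. The difference between the sexes had 0 calls, and 1 with DESeq2. Female against male MEFs gave 698 genes in WT and 599 in KO, 5953 and 5949 with both thresholds loosened in this way, 370 in KO with only the 6 libraries, and 639 and 508 with the block. With 1 library left out the counts ranged from 432 (without male WT replicate 1) to 763 in WT and from 329 (without male KO replicate 1) to 621 in KO, with 376 without female KO replicate 1 and 342 without male KO replicate 2. The 42 and 41 neighbours called in WT and KO became 65 and 68 within 1000 kb and 24 and 24 within 200 kb. Replicate numbers did not pair the libraries (same-numbered r of -0.16 to -0.12 in female and 0.097 to 0.333 in male MEFs), and not every library correlated best with its own number.

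Effects near 0 changed sign. With library size alone, *Ppp1r10* on KO in female MEFs was -0.0072, *Ypel4* on KO in male MEFs 0.0024, and *Slc25a12* -0.018 for the difference between the sexes on KO and 0.012 between the sexes in WT. *Slc25a12* between the sexes in KO was 0.0018 with DESeq2, 0.0024 with DESeq2 size factors and 0.0030 with 6 libraries, and its difference on KO was -0.046 without the third male replicates. With 1 library left out, *Slc25a12* ranged from -0.026 to 0.053 on KO in female, -0.040 to 0.076 in male MEFs, -0.0077 to 0.050 averaged, -0.051 to 0.065 for the difference, -0.060 to 0.045 between the sexes in WT and -0.062 to 0.054 in KO. *Atf4* ranged from -0.044 to 0.0013 on KO in female MEFs and -0.011 to 0.10 for the difference, *Eef1a1* from -0.023 to 0.048 and *Ypel4* from -0.069 to 0.094 on KO in male MEFs, and *Ppp1r10* from -0.032 to 0.047 on KO in female MEFs.

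In Hi-C, the percentage of windows below *Atf4* was 49.3, and 65.6 with absent pairs left out, 15.6 within 1000 kb and 0 within 160 kb. For *Ppp1r10* it was 84.4, 94.5, 93.4 and 0, and within 1000 kb *Eef1a1* had 54.9 and *Slc25a12* 65.8 in place of 0. Depth limits this map and the *Ypel4* values.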
